A study of Mus musculus with 3 samples.

Results

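The 10 genes described here encode 2 transcription factors of the integrated stress response, ATF4 and ATF5, and 8 proteins that act with them or under their control: Ddit3 (CHOP), Nupr1, Trib3, Ppp1r15a, Chac1, Sesn2, Asns and Stc2. They were taken from the deposited count table by exact gene symbol, and each symbol matched 1 of its 22976 genes. The cells were NSC-34, a mouse line that arose from the fusion of neuroblastoma cells with embryonic spinal cord cells rich in motor neurons. One library came from untreated wild-type NSC-34 cells, called the control. The other libraries, clone 1 and clone 2, came from derivatives of the same line that had become resistant to PR20 spontaneously, after 3 weeks with PR20 at 10 µM according to their treatment label. PR20 is a peptide of alternating proline and arginine, a dipeptide repeat that is also made from the expanded C9ORF72 repeat of amyotrophic lateral sclerosis. All 3 libraries shared the line and the growth medium, and the general protocol text of the control names PR20 as well, although its treatment label says none. Each resistant library is 1 clone, the control is 1 library without a replicate, and the labels do not say whether PR20 was still in the medium when RNA was taken.

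In the integrated stress response, kinases that sense unfolded protein, lack of amino acids, double-stranded RNA or haem shortage phosphorylate the initiation factor eIF2. General translation then falls, while the mRNAs of ATF4, ATF5 and CHOP, which carry short upstream reading frames, are translated better. ATF4 pairs with C/EBP-family proteins at composite DNA sites and raises genes for amino acid supply, for damping the response and, when stress lasts, for cell death. A transcript level is therefore only 1 layer of this pathway, and neither eIF2 phosphorylation nor protein was measured in the files used here.

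Reads counted on genes came to 11700755 in the control, 11389663 in clone 1 and 11307034 in clone 2. Levels are CPM (counts per unit of library size as edgeR gives them, scaled by its TMM factors), given for each library, and an SE is that of the log2 fold change over the 3 libraries. The spread behind each p-value is that between the 2 clone libraries alone, because the control is 1 library and gives none. Separate cultures are not named in the labels, so this spread may be technical. Motor neuron markers were sparse or fell: the 4 that could be tested (Isl1, Isl2, Slc18a3 and Ache) all fell, and the whole set summed to 69.3, 26.4 and 23.6 CPM. Chat had 7, 0 and 0 reads in the control, clone 1 and clone 2, Mnx1 had 1, 1 and 3, and Lhx3 had 1, 0 and 0. Of 6 tested neuronal markers all 6 fell, with a summed level of 1490 CPM in the control and 293 and 284 CPM in the clones. All 6 sympathetic neuroblastoma markers also fell, from a sum of 1010 to 596 and 520 CPM. Of 4 tested fibroblast markers Pdgfra fell (51.7, 43.0 and 45.3 CPM in the control, clone 1 and clone 2) and 3 were not called, among them Col1a1 (161, 157 and 259 reads) and Col1a2 (96, 105 and 160 reads). The fibroblast sum was 73.7, 67.2 and 84.2 CPM. No tested glial or immune marker was called, with sums of 3.41, 2.58 and 3.42 CPM for glia and 1.17, 1.51 and 1.53 CPM for immune cells. The part of this loss of neuronal transcripts in the results below was not tested, and in bulk RNA fewer cells of a type and less RNA per cell cannot be told apart.

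The promoters of these genes were searched for the core letters of the composite site that ATF4 and C/EBP proteins are known to bind. RefSeq start sites (GRCm38.p6) were found for all 10 genes and gave 11 windows, 2 of them for Atf5, each from 250 bases before to 50 after the start. The core TGATGNAA, searched on both strands, was present in 4 of the 11 windows and in 3.97% of all 32851 promoter windows of that length. The genes were Chac1, Nupr1, Asns and Trib3. Matches before the start are shown because sites with this core are a known point of contact between these transcription factors and their targets. Capitals mark the match.
Chac1, chr2:119351014-119351091, plus strand: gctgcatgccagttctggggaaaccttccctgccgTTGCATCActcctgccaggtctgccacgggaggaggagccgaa
Nupr1, chr7:126625562-126625591, minus strand: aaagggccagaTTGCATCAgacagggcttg
Asns, chr6:7693214-7693243, minus strand: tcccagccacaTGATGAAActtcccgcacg
Chac1 and Nupr1 carried the same 8 letters, TTGCATCA, which is the core read on the opposite strand. The Chac1 match began 193 bases before the RefSeq start and lay in no annotated exon. The Nupr1 match began 110 bases before and the Asns match 23 bases before the RefSeq start. Gencode M21, which starts transcripts further upstream at both loci, places these 2 matches inside an exon. The Asns letters lie in the element known from earlier work as its nutrient-sensing response element. In Trib3 the match, TTACATCA, lay 14 bases past the RefSeq start, but before the Gencode M21 start, which is further downstream. Ppp1r15a held no core but a full cAMP response element, TGACGTCA, which was present in 1.79% of all windows. It is shown because ATF4 and its relatives belong to the family of factors named after this element.
Ppp1r15a, chr7:45526269-45526315, minus strand: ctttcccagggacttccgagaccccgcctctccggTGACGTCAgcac
The ER stress element, searched on either strand by its full consensus, was in 0 of the 11 windows and in 0.119% of all windows. Letters that match are a description and not a site of binding. No match in a window says only that these letters were not there.

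The comparison of the resistant clones with untreated cells asked which transcripts of the response differed. Of the 10 genes, 6 rose, 2 fell and 2 did not pass the test (edgeR quasi-likelihood test, adjusted p under 0.05 over 13705 genes). Over all tested genes, 24.3% were called higher and 25.8% lower, 50.1% in all, and the count of the 10 genes is to be read against these shares. The 10 genes had a median log2 fold change of 0.39, beside 0.002 over all tested genes. The 6 genes that rose were Atf5, Trib3, Ppp1r15a, Ddit3, Chac1 and Sesn2, and the 2 that fell were Stc2 and Asns. At a size of at least 1.5-fold, 3 of the 10 rose (7.83% of all tested genes) and 1 fell (14.5%). The summed level of the 10 genes was 1686 CPM in the control, 1824 CPM in clone 1 and 1833 CPM in clone 2. DESeq2 called 5 higher and 2 lower, with 10.3% and 10.1% of all genes called in these directions. Without the filter on low counts, edgeR called 0 of the 10 in either direction (adjusted p from 0.0719 to 0.301), although 6 were higher and 3 lower at an unadjusted p under 0.05. That setting also left 0 higher and 4 lower calls (0.0174%) among all 22976 genes.

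**Figure D1:**
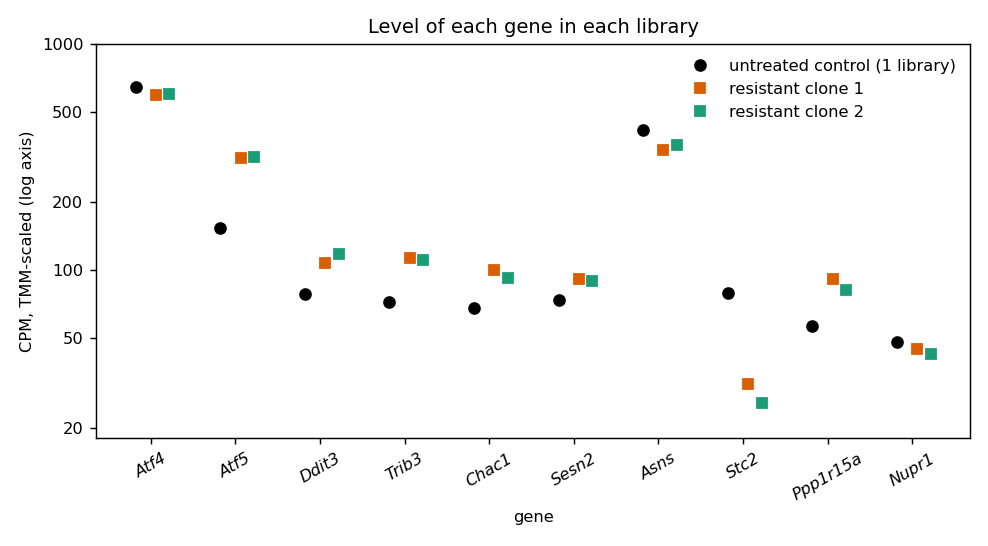
Level of each gene in each library, in TMM-scaled CPM on a log axis, with 1 point per library: the untreated control (circle) and the resistant clones (squares). In Atf5, Ddit3, Trib3, Chac1, Sesn2 and Ppp1r15a both clones lie above the control, in the other genes both lie below it, and the clones lie closer to each other than to the control in all 10.

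Atf4, the central transcription factor of the response (chromosome 15, 80255184 to 80257541, GRCm38), stood at 642 CPM in the control, 593 CPM in clone 1 and 602 CPM in clone 2. Both clones were slightly under the control, with a log2 fold change of -0.10 ± 0.05 (SE), and the difference did not pass (edgeR adjusted p = 0.0865). It was the most abundant of the 10 per length of transcript in every library, at 272 RPKM (CPM over the exonic length in kb) in the control and 253 RPKM in the clones on average. Its call depended on scaling: with library totals alone it counted as lower (log2 fold change -0.17, edgeR adjusted p = 0.0176), and likewise with upper quartile factors (-0.18, edgeR adjusted p = 0.0137).

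Atf5, the close relative of ATF4 that is linked to mitochondrial stress and to survival of neural progenitors (chromosome 7, 44812256 to 44816658), changed most among the genes that rose. It stood at 153 CPM in the control, 314 CPM in clone 1 and 315 CPM in clone 2. The clones were 0.292% apart (315 ± 0.650 CPM, mean ± SD, n = 2) and both lay 2.06-fold above the control (log2 fold change 1.04 ± 0.06, SE; edgeR adjusted p = 3.63e-10). Its fold change was larger than or equal to that of 97% of the tested genes. Per length, Atf4 was 3.55 times as abundant as Atf5 in the control, 1.59 times in clone 1 and 1.61 times in clone 2. Atf5 shares 82 exonic bases, 4.11% of its exonic length, with each of Nup62 and Il4i1 on the opposite strand. Whether reads were counted by strand is not stated in these sources.

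Ddit3 encodes CHOP, the factor that links lasting stress to cell death. It stood at 78.0 CPM in the control, 107 CPM in clone 1 and 117 CPM in clone 2. Both clones were higher, with a fold change of 1.44 (log2 0.53 ± 0.07, SE; edgeR adjusted p = 1.83e-05). Ddit3 shares 68 exonic bases, 3.97% of its exonic length, with Mars on the opposite strand. It also shares 105 bases, 6.13%, with a second Ddit3 entry of Gencode M21 on its own strand. Nupr1, a small chromatin-associated stress protein that ATF4 is known to induce, stood at 47.9, 44.8 and 42.2 CPM in the control, clone 1 and clone 2. Its log2 fold change of -0.14 ± 0.09 (SE) did not pass (edgeR adjusted p = 0.200). Nupr1 was called in 0 of the 10 other fits that gave a test, with log2 fold changes between -0.22 and -0.10 over all alternatives.

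The 2 genes that damp the response both rose. Trib3, a pseudokinase that binds ATF4 and CHOP and holds AKT back, stood at 72.1 CPM in the control, 112 CPM in clone 1 and 110.3 CPM in clone 2. This was a 1.55-fold difference (log2 0.63 ± 0.07, SE; edgeR adjusted p = 1.28e-06). Ppp1r15a encodes GADD34, the inducible subunit that directs protein phosphatase 1 to eIF2. It stood at 56.4 CPM in the control, 90.9 CPM in clone 1 and 81.2 CPM in clone 2, a fold change of 1.53 (log2 0.61 ± 0.08, SE; edgeR adjusted p = 1.42e-05). For both genes the gap to the control was several times the gap between the clones.

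The effector enzymes and secreted proteins moved in both directions. Chac1, which breaks down glutathione, had 67.9 CPM in the control, 100.3 CPM in clone 1 and 91.6 CPM in clone 2 (log2 fold change 0.50 ± 0.08, SE; edgeR adjusted p = 4.47e-05). Sesn2, a leucine-binding inhibitor of mTORC1, had 73.8 CPM in the control, 91.3 CPM in clone 1 and 89.3 CPM in clone 2. Its rise of 1.22-fold was the smallest of the 6 (edgeR adjusted p = 0.00239), and it did not pass with DESeq2 (adjusted p = 0.205). Asns, asparagine synthetase, is the classic amino acid target of ATF4. Its level was 417 CPM in the control, 338 CPM in clone 1 and 358 CPM in clone 2, lower in both (log2 fold change -0.26 ± 0.05, SE; edgeR adjusted p = 0.000760). Stc2, a secreted glycoprotein of the stanniocalcin family that ATF4 is known to induce, stood at 78.9 CPM in the control, 31.3 CPM in clone 1 and 25.7 CPM in clone 2 (28.5 ± 3.93 CPM, mean ± SD, n = 2 clones). It fell by 2.77-fold, the largest change of the 10 (log2 -1.47 ± 0.10, SE; edgeR adjusted p = 4.81e-09), and 6.3% of the tested genes had a log2 fold change at or below it. The genes with the response element core thus included 2 that rose (Chac1 and Trib3), 1 that fell (Asns) and 1 that was not called (Nupr1).

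In the authors' deposited table, 5 of the 10 genes were higher, 2 were lower and 3 had an adjusted p of 0.05 or more. These 3 were Atf4 (adjusted p 0.327), Sesn2 (0.210) and Nupr1 (0.732). That table, made with DESeq2 from the same 3 libraries, called 10% of its genes higher and 9.77% lower. It gives Atf5 a log2 fold change of 1.03 and Stc2 one of -1.48.

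Between the clones, the ratio of clone 2 to clone 1 lay past 1.5-fold for 0 of the 10 genes. For all tested genes the share was 9.05%, so the count of the 10 genes is near it. That share also covers genes with far fewer reads and was not matched for level. With 1 library for each clone there was no test. Stc2 had the widest gap, at 0.822 times the clone 1 level in clone 2 (95% exact interval 0.701 to 0.964, counting error only). Ppp1r15a stood at 0.893 times (0.815 to 0.977) and Chac1 at 0.913 times (0.838 to 0.995), while Ddit3 was at 1.10 times (1.01 to 1.19) and Asns at 1.06 times (1.01 to 1.11). For the other 5 genes the interval included equality, and for Atf5 it ran from 0.957 to 1.05.

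Atf5, Ppp1r15a and Nupr1 lie on chromosome 7, where the tested genes as a whole were higher in the clones, with a median log2 fold change of 0.26 and 42.7% called higher over 1069 genes. Atf4 lies on chromosome 15, where the median over 550 genes was -0.28 and 49.5% were called lower. Atf5 was 0.78 above the median of its chromosome on the log2 scale. Of the 40 tested genes around it, 20 on each side by order of position, 24 rose and 3 fell. Their median was 0.44, and 33 had a smaller log2 fold change than Atf5. Their starts lay from -1339 to 250 kb from that of Atf5, so they are not the 40 nearest by distance. The tested genes next to it on either side, Nup62 (0.75) and Vrk3 (0.31), rose. One gene further on each side, Zfp473 (1.12) rose and Il4i1 (1.19) was not called. Ppp1r15a (45522916 to 45526268) lies in the same part of chromosome 7 as Atf5, so the 2 genes are not separate regions. Ppp1r15a was 0.35 above the chromosome median, and 18 of its 40 neighbours rose, with a median of 0.36. Nupr1, further along the same chromosome, was 0.40 below the chromosome median, with a neighbour median of -0.01. Atf4 was 0.17 above the median of chromosome 15, and 22 of its 40 neighbours fell. Ddit3, Trib3, Chac1 and Sesn2 lie on chromosomes with medians between -0.08 and 0.01 and stood 0.61, 0.62, 0.49 and 0.32 above them. Their neighbour medians were 0.13, 0.004, 0.08 and 0.11. Asns and Stc2 stood -0.26 and -1.51 from the medians of chromosomes 6 and 11, with neighbour medians of -0.05 and -0.04. What part these regional shifts have in the values of the 10 genes was not tested.

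**Figure D2:**
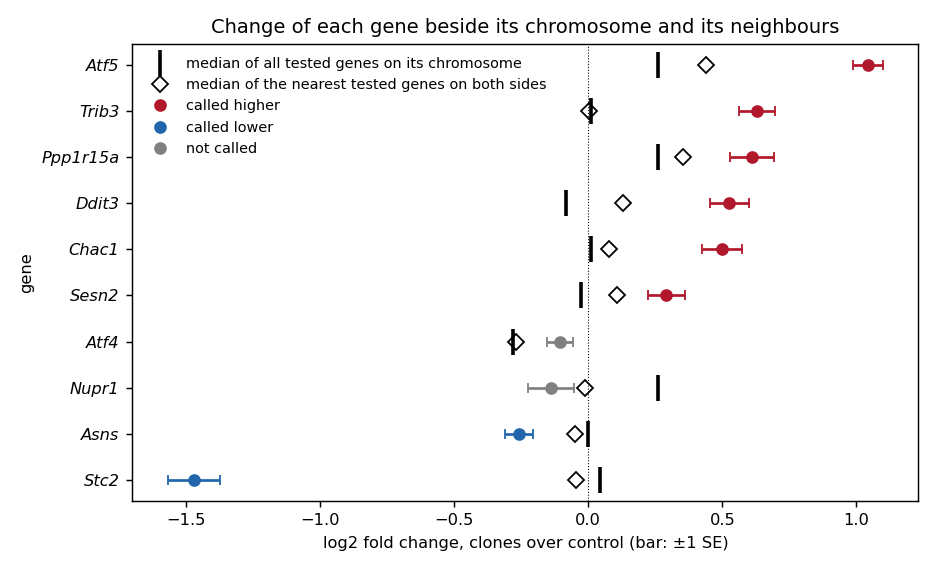
Log2 fold change of each gene in the clones over the control (points, with bars of ±1 SE). Beside it stand the median of all tested genes on its chromosome (black tick) and that of its neighbours (open diamond). Neighbours are up to 20 tested genes on each side, by order of position. Atf5 and Ppp1r15a lie to the right of medians that are themselves above 0, and Atf4 lies to the right of medians near -0.28.

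**Figure D3:**
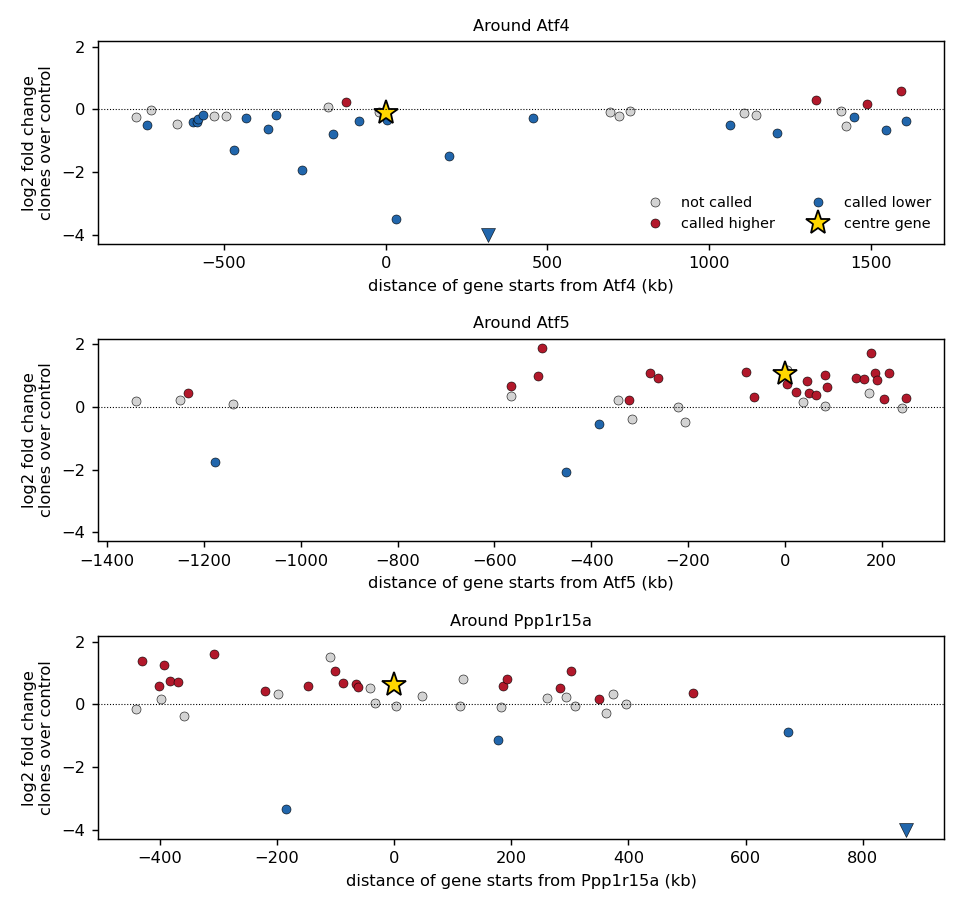
Log2 fold change in the clones over the control of the 20 tested genes on each side of Atf4, Atf5 and Ppp1r15a, against the distance of their starts in kb. Points are coloured by edgeR call, the star is the centre gene, and a triangle marks a gene below -4 (1 near Atf4 and 1 near Ppp1r15a). Genes called higher crowd around Atf5 and genes called lower around Atf4.

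The counts of calls in the lists that follow are to be read against all tested genes, of which edgeR called 24.3% higher and 25.8% lower and DESeq2 10.3% and 10.1%. Without the low count filter edgeR called 0 genes of any of these 9 lists.

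Of 9 tested paralogs, 0 were called higher and 4 lower by edgeR (0% and 44.4%, beside 24.3% and 25.8% of all tested genes), with a median log2 fold change of -0.37 (1 higher and 5 lower at an unadjusted p under 0.05, and 0 higher and 1 lower with DESeq2). Sesn3, a sestrin that is under control of FOXO factors, fell from 179 CPM to 99.7 and 99.9 CPM (edgeR adjusted p = 9.47e-09), and Sesn1, the p53-regulated sestrin, fell from 36.4 CPM to 26.8 and 29.5 CPM. Stc1, the other stanniocalcin gene, fell from 3.33 CPM to 0.534 and 0.719 CPM, on 40, 6 and 8 reads. Chac2, which acts on glutathione without stress, fell from 9.49 CPM to 4.72 and 7.10 CPM. The pseudokinase genes Trib1 and Trib2 (log2 fold changes 0.09 and 0.07), Ppp1r15b, the constant partner of phosphatase 1 (0.13), Nupr1l (-0.03) and Asnsd1 (-0.51) did not pass. Asnsd1 shares 56.5% of its exonic length with another gene on its strand, so its count is uncertain. Whether paralogs and the 10 genes differ was not tested, beyond these values.

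Upstream, a list around eIF2 had 5 higher, 5 lower and 16 not called of 26 and a median of 0.03. These 19.2% in each direction are below the 24.3% and 25.8% of all tested genes. With upper quartile factors the count was 3 higher and 7 lower. Besides eIF2, its kinases, its exchange factor eIF2B and its phosphatase, the list holds related initiation factors and regulators. Of these related genes Gcn1l1, Eif2d and Dele1 were among the higher calls, and the rest were not called. Of the 4 kinases, Eif2ak1, the haem-sensing HRI, fell from 131 CPM to 102 and 105 CPM (log2 fold change -0.34, edgeR adjusted p = 0.000269). Eif2ak3, the ER-stress kinase PERK, fell from 77.6 CPM to 66.8 and 68.4 CPM (edgeR adjusted p = 0.0292). Eif2ak2 (PKR, log2 fold change 0.15) and Eif2ak4 (GCN2, 0.10) did not pass. Dele1, listed under its older symbol 0610009O20Rik, encodes the mitochondrial protein that relays mitochondrial stress to HRI. It rose from 69.3 CPM to 111 and 107 CPM (log2 fold change 0.65, edgeR adjusted p = 1.04e-06). It lies on chromosome 18, where the median of 339 tested genes was 0.41. Ppp1ca, a catalytic subunit of phosphatase 1, rose from 313 CPM to 390.1 and 394 CPM. DESeq2 called 2 of the 26 higher and 1 lower, beside 10.3% and 10.1% of all genes.

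The leucine zipper factors that can pair with ATF4, ATF5 or CHOP had 5 higher and 4 lower of 15 tested and a median of 0.11, shares of 33.3% and 26.7% that are near the 24.3% and 25.8% of all tested genes. Cebpg, a known ATF4 partner at composite sites, rose from 70.7 CPM to 107 CPM in both clones (log2 fold change 0.60, edgeR adjusted p = 2.32e-06), and Crebzf rose from 42.7 CPM to 59.6 and 60.9 CPM. Both lie on chromosome 7. Jun, a subunit of AP-1, fell by 1.99-fold to 14.8 and 15.5 CPM (edgeR adjusted p = 5.71e-06). Atf3, a stress-induced repressor downstream of ATF4, fell from 26.0 CPM to 16.6 and 16.6 CPM (edgeR adjusted p = 0.000394). Cebpb did not pass (log2 fold change 0.18). DESeq2 called 4 higher and 2 lower.

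Targets in amino acid supply moved in both directions. Among synthesis and one-carbon enzymes 5 rose and 2 fell of 14 (35.7% and 14.3%, beside 24.3% and 25.8% of all tested genes; median 0.12), and 3 rose and 2 fell with upper quartile factors or library totals alone. Phgdh, the first enzyme of serine synthesis, rose from 225 to 350 and 381 CPM (log2 fold change 0.70), and Mthfd1l and Shmt2, of mitochondrial one-carbon metabolism, had log2 fold changes of 0.59 and 0.53. The 2 enzyme genes that fell were Cth and Pycr1 (log2 fold changes -0.41 and -0.41). Among amino acid transporters 7 rose and 3 fell of 12 tested (58.3% and 25%, median 0.21). Slc1a5, a glutamine transporter on chromosome 7, rose from 227 to 428 and 445 CPM (log2 fold change 0.95, edgeR adjusted p = 8.96e-10). Slc7a5 and Slc3a2, the chains of the leucine exchanger LAT, had log2 fold changes of 0.59 and 0.48, also passing. The 3 transporter genes that fell were Slc7a11, Slc7a6 and Slc38a1 (log2 fold changes -0.52, -0.17 and -0.15). DESeq2 called 3 and 5 genes of these lists higher and 0 lower in both.

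Of the cytosolic aminoacyl-tRNA synthetases, with the tRNA exporter Xpot, 10 of 21 rose and 1 fell (47.6% and 4.76%, beside 24.3% and 25.8% of all tested genes; median 0.13). DESeq2 called 6 and 0, and with upper quartile factors 6 rose and 1 fell. Vars rose from 271 to 459 and 465 CPM (log2 fold change 0.77, edgeR adjusted p = 6.58e-09), and Lars and Nars had log2 fold changes of 0.66 and 0.51. All 4 members on chromosomes 7 and 18 rose, and of the 16 off chromosomes 7, 15, 18 and X 6 rose and 0 fell. Other effectors of ATF4 and CHOP had 8 higher and 2 lower of 20 tested (40% and 10%, median 0.08). DESeq2 called 3 and 1, and with upper quartile factors 5 were higher and 3 lower. Vegfa, the angiogenic growth factor gene, rose from 159 to 232 and 224 CPM, Ddit4, another inhibitor of mTORC1, from 132 to 177 and 175 CPM, and Sqstm1, an autophagy receptor gene, from 373 to 481 and 482 CPM. Gdf15, a secreted stress hormone gene, rose from 25.5 to 30.6 and 30.9 CPM, just inside the threshold (edgeR adjusted p = 0.0493).

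The protein-folding lists stood on opposite sides of 0. Of 28 tested genes of ER chaperones and of the other unfolded protein response arms, 16 fell and 2 rose (57.1% and 7.14%, beside 25.8% and 24.3% of all tested genes; median -0.23). DESeq2 called 10 lower and 0 higher, and with upper quartile factors or library totals alone 17 fell and 0 rose. Derl1, of ER-associated degradation, fell from 226 to 139 and 144 CPM (log2 fold change -0.67, edgeR adjusted p = 7.15e-08). Sdf2l1, an ER chaperone partner, fell from 63.9 to 35.7 and 37.3 CPM, and Mbtps2, the protease that releases ATF6, from 85.8 to 52.7 and 56.0 CPM. Derl1 and Mbtps2 are among the 3 list members on chromosomes 15 and X, all 3 of which fell, and off chromosomes 7, 15, 18 and X 13 of 25 fell and 2 rose. Mbtps2 shares 28.4% of its exonic length with Yy2 on the same strand, and its count is uncertain for that reason. Of 18 tested mitochondrial chaperones and proteases, a group that ATF5 is known to help induce, 11 rose and 1 fell (61.1% and 5.56%, median 0.27), and DESeq2 called 6 and 1. Hspa9, the mitochondrial HSP70 gene on chromosome 18, rose from 479 to 817 and 849 CPM (log2 fold change 0.80, edgeR adjusted p = 3.60e-09). Trap1, the mitochondrial HSP90 gene, rose from 116 to 169 and 166 CPM, and Phb2, a prohibitin gene, from 177 to 242 and 259 CPM. Off chromosomes 7, 15, 18 and X, 8 of 15 rose and 1 fell, with a median of 0.19.

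**Figure D4:**
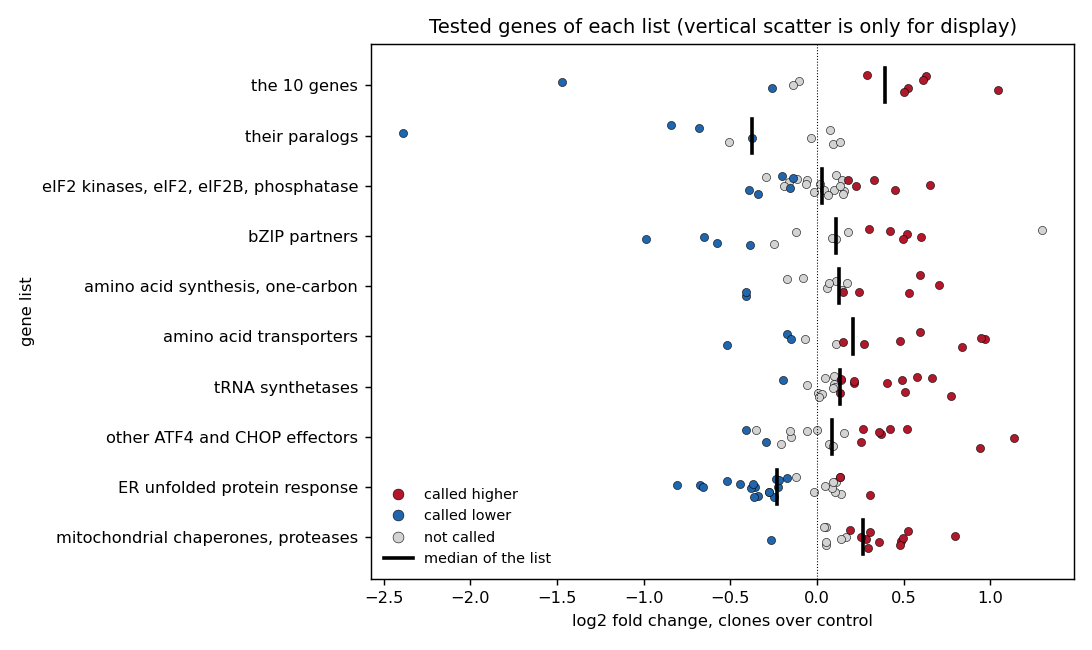
Log2 fold change in the clones over the control of every tested gene of the 10 genes and of the 9 other lists, 1 point per gene, coloured by edgeR call, with the list median as a black bar. The median of the 10 genes is 0.39, those of the mitochondrial and the ER lists are 0.27 and -0.23.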

How the data were processed

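Polyadenylated RNA, with an RNA integrity number above 9 per the labels, was made into stranded libraries. The raw counts are whole reads per gene that the authors made with STAR's gene counting, per the file headers, which name STAR 2.5, Gencode M16 (Ensembl 91) and GRCm38/mm10. Tools in the submitters' processing notes are STAR 2.5.3, bcl2fastq and DESeq2. The RPM values, deposited beside the counts, matched CPM computed from the column totals within 0.05. The authors' DESeq2 table gives a fold ratio, a log2 fold change, a p-value and an adjusted p-value, per the file headers.

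Counts were filtered with filterByExpr, which left 13705 of 22976 genes and all 10 genes described. Clones were tested against the control with quasi-likelihood F tests in edgeR (edgeR 4.0.16, limma 3.58.1, DESeq2 1.42.0, R 4.3.3), two-sided, with TMM factors, the legacy option off and Benjamini-Hochberg adjustment at 0.05, checked on simulated data. The SE was taken as log2 fold change divided by the root of F. Only the 2 clones inform the spread (1 residual degree of freedom), which edgeR moderates over genes. Exonic lengths and positions came from Gencode M21 (GRCm38), which placed 13692 tested genes. The total of 11307034 to 11700755 counts sets the precision: 3 counts corresponded to 0.256 to 0.265 CPM. Intervals cover counting error only.

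The genes and lists were chosen with earlier results of these data known. Named were all 10 genes, their paralogs, the 3 genes of each other list with the lowest edgeR p, and Atf3, Cebpb, Cebpg, the 4 eIF2 kinases, Gdf15 and Ddit4. Nup62, Il4i1, Vrk3, Zfp473, Gcn1l1, Eif2d, Mars, Cth, Pycr1, Slc7a11, Slc7a6 and Slc38a1 were named after their values were seen. The split of lists by chromosomes 7, 15, 18 and X was also made after that. Alternatives were DESeq2, limma-voom, RLE, upper quartile or no scaling factors, no filter, a filter at a mean of 1 CPM, legacy and robust fits, a prior count of 5 and leaving out each clone. No filter together with the legacy fit was added after the data were seen.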

Additional observations from a re-analysis of the deposited data

How the results depend on the processing

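Leaving aside both fits without the low count filter, the number of the 10 genes called was 5 to 6 higher and 2 to 3 lower over 8 alternatives. Without the filter 0 were called higher and 0 lower by edgeR, and the same held with the legacy fit (6 higher and 2 lower at an unadjusted p under 0.05 there). Over all genes the first of these settings left 0 higher and 4 lower calls (3670 and 3417 at an unadjusted p under 0.05) and the second 0 and 0 (3289 and 3271), and DESeq2 made 1402 and 1369. The cause was not tested. The median log2 fold change of the 10 genes was 0.32 with upper quartile factors and 0.33 with library totals alone, which lower the median of all genes by -0.08 and -0.06, and 0.35 to 0.38 with a clone left out. None of the 13 alternatives turned the direction of any of the 10 genes. Over the 9 other lists, 124 counts of calls stayed within 1.5 times of the reported count and 56 moved further, those without the filter among them. Calls changed for Sesn2 with DESeq2, for Atf4 with the 2 scalings named, and for the 8 called genes without the filter, where Atf5 had an adjusted p of 0.0719. The ratios between clones stayed within their intervals under the 3 other scalings. With a clone left out there is no residual degree of freedom and so no test. No paired analysis was possible because the control carries no replicate number and is 1 library.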
